A study of Homo sapiens with 22 samples.

Results

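The replication-dependent histone gene clusters were examined in peak lists of the circadian transcription factors BMAL1 (ARNTL) and CLOCK. The lists came from chromatin immunoprecipitation followed by sequencing (ChIP-seq) of THP-1, an established line of monocytic leukaemia cells that carries the MLL-AF9 fusion. Peaks were taken when their midpoint lay in 1 of 3 windows of build hg19, HIST1 at chr6:26000000-27900000, HIST2 at chr1:149750000-149900000 or HIST3 at chr1:228600000-228660000. These windows held 20 of 9853 listed peaks, 9 of 9584 for BMAL1 and 11 of 269 for CLOCK. The windows stand for 58 named histone genes, 52 in HIST1, 3 in HIST2 and 3 in HIST3. Both groups were THP-1 cells of the same fixation, 2 mM EGS, an agent that links proteins to each other, for 30 minutes and then 1% formaldehyde for 30 minutes. One group was precipitated with an antibody to BMAL1 and the other with an antibody to CLOCK, with 1 library each, and the values therefore carry no error between replicates. The other 20 of the 22 libraries of the series were not analysed here. Among them were IgG, input and all NOMO-1 libraries, and THP-1 libraries of BMAL1 and CLOCK from another fixation. The windows were chosen by the positions of these same CLOCK and BMAL1 peaks, so the number of peaks in them is a description and supports nothing.

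Replication-dependent histone genes supply the core histones H2A, H2B, H3 and H4 and the linker histone H1 during DNA synthesis. Their messengers end in a stem-loop bound by SLBP instead of a poly(A) tail, and their transcription is switched on by NPAT, a substrate of cyclin E and CDK2. In mammals they sit in clusters, and the largest of these is interspersed with tRNA genes. BMAL1 and CLOCK form a heterodimer that binds E-box sequences and activates the circadian clock's own repressors.

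The named genes were placed in order with RefSeq's gene table, which is of build GRCh38.p14. It was used for names and for which genes neighbour each other. No annotation of hg19 was used here, so no peak was assigned to a single histone or tRNA gene. In RefSeq's order the 52 HIST1 genes formed 3 blocks, counting as 1 block all named genes with fewer than 20 other genes between neighbours. The first ran from HIST1H1A to HIST1H4H and held 31 named genes, of which 5 encode H1, 4 H2A, 8 H2B, 7 H3 and 7 H4. The second ran from HIST1H2BJ to HIST1H2AH with 5 named genes, 2 for H2A, 2 for H2B and 1 for H4. The third ran from HIST1H2BL to HIST1H2BO with 16, of which 1 encodes H1, 5 H2A, 4 H2B, 3 H3 and 3 H4. Between the first and the second block RefSeq listed 84 other genes, 47 of them tRNA genes and 9 protein-coding. Between the second and the third it listed 77, of which 51 were tRNA genes and 5 protein-coding.

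Promoter sequences were looked up by gene symbol in RefSeq's windows of build GRCh38.p14, which run from 250 bases before to 50 bases after a gene's start. Of the 58 named genes 53 had a window, and 4 of these had 2, which gave 57 windows. HIST1H4A, HIST1H4C, HIST1H2AH, HIST1H3I and HIST1H3J had none. The sequences below show 1 known promoter element for each histone class, in capitals, within the 200 bases before the start. They belong to the first named gene of each class, in the order of the list, that holds the element there, and to HIST2H4A, which is described with the HIST2 window. Capitals mark AAACACA for H1, ATTTGCAT for H2A and H2B, CCAAT for H3 and CGGAC for H4, each read on either strand. CCAAT is not particular to H3, as the counts by class show.
HIST1H1A: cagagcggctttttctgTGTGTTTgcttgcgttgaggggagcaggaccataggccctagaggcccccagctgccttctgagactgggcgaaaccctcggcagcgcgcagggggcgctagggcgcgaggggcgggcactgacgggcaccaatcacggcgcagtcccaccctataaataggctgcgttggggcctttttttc
HIST1H2AB: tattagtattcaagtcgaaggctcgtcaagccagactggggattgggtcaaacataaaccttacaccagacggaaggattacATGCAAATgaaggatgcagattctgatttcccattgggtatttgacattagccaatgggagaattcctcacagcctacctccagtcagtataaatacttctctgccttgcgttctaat
HIST1H2BB: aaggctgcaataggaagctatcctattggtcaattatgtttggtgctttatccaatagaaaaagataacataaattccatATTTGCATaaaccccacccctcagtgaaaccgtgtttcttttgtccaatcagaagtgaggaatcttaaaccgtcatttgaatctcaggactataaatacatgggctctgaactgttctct
HIST1H3A: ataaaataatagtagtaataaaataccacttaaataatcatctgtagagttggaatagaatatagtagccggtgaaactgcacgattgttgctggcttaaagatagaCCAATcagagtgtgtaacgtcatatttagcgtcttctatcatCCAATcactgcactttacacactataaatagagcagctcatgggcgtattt
HIST1H4B: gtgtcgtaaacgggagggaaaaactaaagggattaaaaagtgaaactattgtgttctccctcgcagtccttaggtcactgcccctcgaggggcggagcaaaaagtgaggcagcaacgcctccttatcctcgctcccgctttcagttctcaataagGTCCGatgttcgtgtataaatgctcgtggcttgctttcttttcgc
HIST2H4A: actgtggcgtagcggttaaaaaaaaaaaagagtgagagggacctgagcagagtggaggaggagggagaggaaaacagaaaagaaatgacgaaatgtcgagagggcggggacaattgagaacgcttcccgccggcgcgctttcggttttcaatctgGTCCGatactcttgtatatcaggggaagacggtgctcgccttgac

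None of the 57 promoter windows of the named histone genes held the E-box CACGTG, which 7.26% of all 35116 RefSeq windows held. The related hexamer CACGTT was in 3 of the 57, those of HIST1H4J, HIST1H4K and HIST1H2AL, against 5.34% of all windows. These counts describe letters in short windows of the gene starts. They do not describe the bases under the peaks, which were not read, and nothing about either factor follows from the absence of a match.

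The elements were shared within classes. The octamer ATTTGCAT, the site of OCT1 (POU2F1), was in 10 of 13 H2A and 13 of 18 H2B windows, beside 1.77% of all windows. The H1 box AAACACA was in 6 of 6 H1 windows, beside 5.64%. The pentamer CGGAC, the core of the H4 gene site bound by HINFP, was in 9 of 9 H4 windows, beside 28.9%. In these 9 windows its first base lay from 43 to 46 bases before the start. The positions of the others were more spread. The H1 box lay from 105 to 183 bases before the start in H1 windows. The octamer lay from 98 to 208 in H2A and from 45 to 149 in H2B windows. Outside these classes, the octamer was in 1 of 11 H3 windows and the H1 box in 1 of 13 H2A windows. The H4 core was in 5 of the 48 other windows, 1 of 6 for H1, 1 of 13 for H2A, 1 of 18 for H2B and 2 of 11 for H3. CCAAT was in 48 of these 48 windows and in 3 of 9 H4 windows, against 34.6% of all windows. TATAAA was in 37 of the 57, against 11.5%. No element contains another, although they may overlap within a window.

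**Figure D1:**
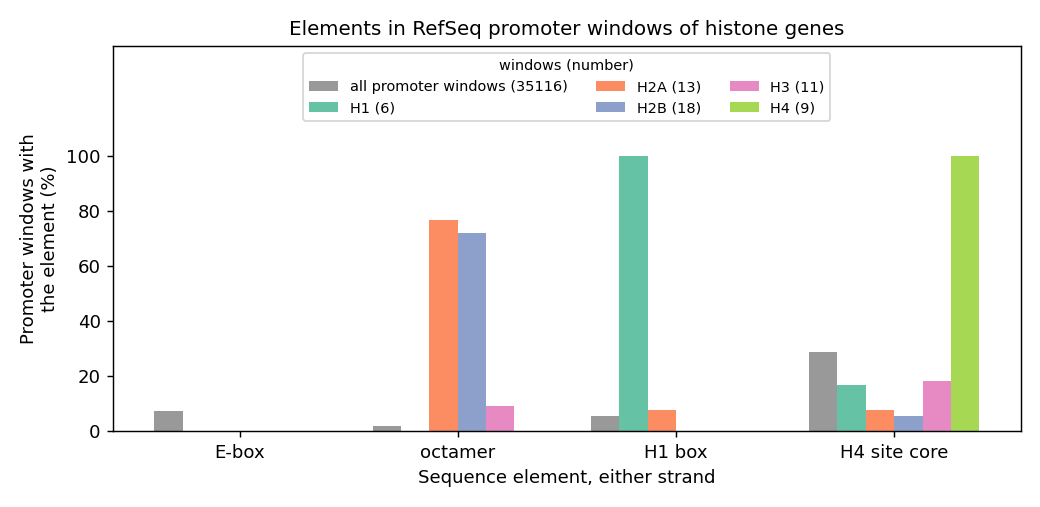
Share of RefSeq promoter windows (%, vertical axis) that hold each of 4 sequence elements on either strand, for all 35116 windows (grey) and for the named genes of each histone class, with the number of windows in the key. No histone bar appears for the E-box, and the H1 box and the H4 site core reach 100% in their own class.

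Histone genes also share promoter DNA. In 11 pairs of named genes, 253 to 293 bases of 1 window were the same DNA as the other window read on the opposite strand, and 10 of these pairs joined an H2A gene to an H2B gene. HIST1H2AK and HIST1H2BN shared 293 bases, and HIST1H2AG and HIST1H2BJ 253. The remaining pair was HIST1H2BF with HIST1H3D. The H2A and H2B counts above thus rest on fewer separate stretches of DNA than windows. Some matches outside the classes also came from such pairs. The octamer of the H3 windows was in HIST1H3D, paired with HIST1H2BF. The H4 core of the H2A and H2B windows was in HIST2H2AC and HIST2H2BE, which shared 265 bases.

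In the HIST1 window CLOCK and BMAL1 peaks lay in separate groups along the chromosome and did not overlap. CLOCK was listed at 9 sites and BMAL1 at 4. From left to right, 6 CLOCK peaks were followed by 3 BMAL1 peaks, 1 CLOCK peak, 1 BMAL1 peak and 2 CLOCK peaks. The score is the authors' own value per peak, with no stated unit, and is compared below only within 1 list.

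The first CLOCK group spanned 224 kb, from 26027292 to 26250914 of chromosome 6. It opened with chr6:26027292-26027824, scoring 24.5. The next peak, chr6:26103844-26104376, scored 19.5. It was followed 19157 bp on, between midpoints, by the strongest CLOCK peak of the windows, chr6:26123001-26123533, with 37. This last score ranked 53 of 269 in the CLOCK list. Further on, chr6:26189094-26189626 scored 31 and chr6:26240320-26240852 scored 30.5. The group closed with chr6:26250382-26250914, 10062 bp after its neighbour and scoring 18.5, the lowest of the group and near the lowest of the whole CLOCK list, 18. Scores within the group thus differed by a factor of 2 between the strongest and the weakest peak.

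The 3 BMAL1 peaks that came next lay at or below the middle of their own list, or just above it. The first, chr6:26393220-26393616, scored 10, the lowest BMAL1 score there is. The others were chr6:26479038-26479434 with 14 and chr6:26537615-26538011 with 15. Of these 3 only the last reached the BMAL1 median of 14.5. The gap between the end of the first CLOCK group and the first of these peaks was 142 kb.

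The remaining HIST1 peaks lay farther apart. A CLOCK peak at chr6:27106744-27107276 scored 20 and stood 692389 bp from the nearest other CLOCK midpoint. The single BMAL1 peak at chr6:27573149-27573545 scored 13. The last CLOCK peaks, chr6:27799133-27799665 and chr6:27841164-27841696, scored 19 and 25.5 and were 42031 bp apart. CLOCK peaks thus fell into 3 groups of 6, 1 and 2. RefSeq's order gives 3 blocks of 31, 5 and 16 named genes, but no peak was placed in a block.

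**Figure D2:**
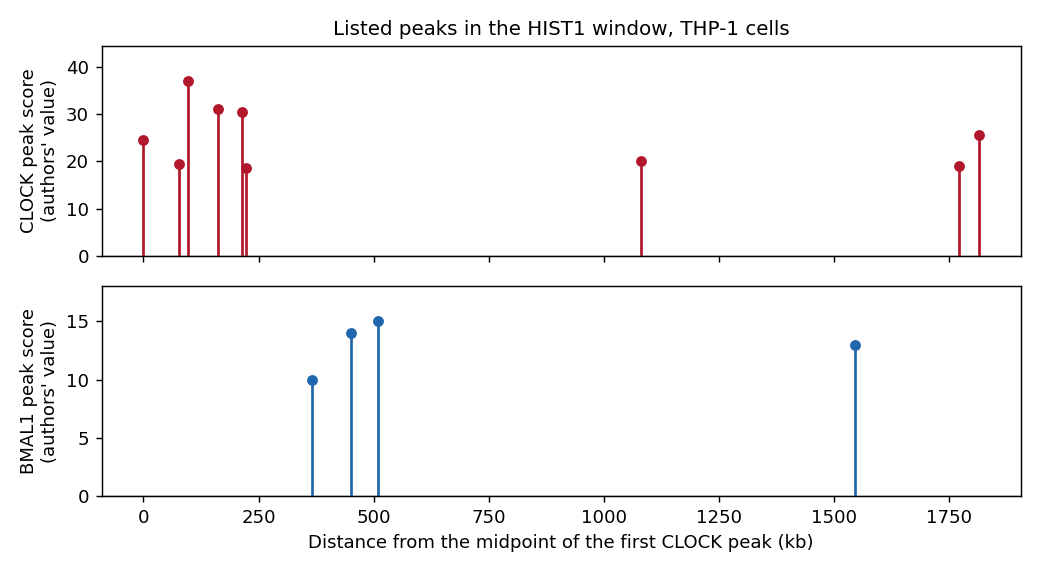
Score (authors' value, vertical axis, own scale for each factor) of the 9 CLOCK peaks (upper panel) and 4 BMAL1 peaks (lower panel) of the HIST1 window against distance from the midpoint of the first CLOCK peak (kb). The 6 CLOCK peaks at the left lie before the first BMAL1 peak, and no BMAL1 peak stands at the position of a CLOCK peak.

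None of the 9 CLOCK peaks of HIST1 coincided with a BMAL1 peak (0%, exact Clopper-Pearson 95% interval 0 to 33.6%), whereas 52.0% of all 269 CLOCK peaks did. Each had its nearest BMAL1 midpoint more than 100 kb away, as had 19.7% of all CLOCK peaks. The nearest such distance was 142770 bp and the farthest 466337 bp. Their median was 268083 bp, and that of the whole CLOCK list was 329 bp. No test was made, because the window was chosen with this pattern known and neighbouring peaks are not independent. For the same reasons the interval, which treats the peaks as independent draws, cannot serve to compare the share with that of the whole list. The other 9 listed CLOCK peaks of chromosome 6 overlapped a BMAL1 peak in 2 cases (22.2%, exact interval 2.81 to 60%). Whether the HIST1 peaks differ from these 9 in overlap was not tested.

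The CLOCK peaks of HIST1 lay in long stretches without a listed BMAL1 peak. The first 6 CLOCK peaks all lay in 1 stretch without BMAL1 peaks, chr6:23620341-26393219, which was 2770 kb long and the seventh longest of 594 such stretches between listed BMAL1 peaks of the chromosome. The CLOCK peak of score 20 lay in a stretch of 1040 kb and the last 2 in a stretch of 731 kb, while the median stretch was 95.7 kb. That median counts each stretch once. A position falls more often in a long stretch than in a short one, so the median understates the stretch around a typical position. Over the HIST1 window BMAL1 had 2.11 peaks per Mb, against 3.51 per Mb on chromosome 6 outside it. The HIST1 rate rests on 4 peaks in 1.9 Mb, in a window chosen with these peaks known, so it does not show a shortage of BMAL1. The shorter windows had more BMAL1 peaks per Mb than the rest of chromosome 1, 26.7 in HIST2 and 16.7 in HIST3 against 4.75. These rates rest on 4 peaks in 150 kb and 1 peak in 60 kb, in windows chosen with these peaks known. CLOCK had 4.74 peaks per Mb in HIST1 and 0.0727 outside it on chromosome 6. Of its 18 peaks on the chromosome 9 were in the window, as the choice of the window fixed. Each rate outside was taken over the span between the first and last listed peak of that factor, less the windows, so the spans differ between factors. For CLOCK on chromosome 6 the span starts at the first HIST1 peak. The chromosome before that peak is left out, which makes the rate higher than over the whole chromosome.

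Among the 18 listed CLOCK peaks of chromosome 6 the HIST1 peaks included the highest scores. The 3 highest, 37, 31 and 30.5, were all in the window, and the highest outside was 26. The lower end was also represented, with 5 of the 9 at or above the CLOCK median of 24, as were 52.4% of all CLOCK peaks by definition of the median and its ties. Their median of 24.5 compared with 20.5 for the other 9 CLOCK peaks of the chromosome, and the ranges, 18.5 to 37 and 18 to 26, overlapped. The peaks of score 37, 31 and 30.5 carried the numbers 8, 14 and 16 in the authors' numbering of the chromosome, in which the number rises as the score falls. No number below 8 is listed, so these scores are the highest of the listed peaks only. The highest number listed on chromosome 6 was 434 for CLOCK and 934 for BMAL1. Up to these, 416 CLOCK numbers (95.9%) and 339 BMAL1 numbers (36.3%) are absent from the lists. Higher numbers may be absent too. Sites with the absent numbers have unknown positions, and a BMAL1 peak at these histone sites may be among them.

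**Figure D3:**
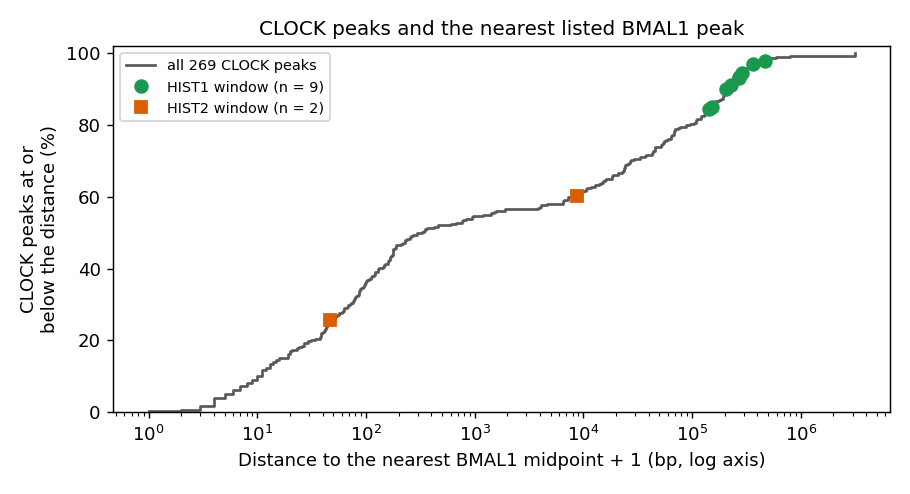
Cumulative share (%, vertical axis) of CLOCK peaks by distance from their midpoint to the nearest BMAL1 midpoint plus 1 bp (log axis), for all 269 CLOCK peaks (grey line), the 9 of the HIST1 window (green circles) and the 2 of the HIST2 window (orange squares). The HIST1 peaks stand together at 142770 to 466337 bp, and the HIST2 peaks at 46 and 8796 bp.

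The HIST2 window, 150 kb long, differed in layout, with its CLOCK midpoints 46 and 8796 bp from the nearest BMAL1 midpoints. It held 2 CLOCK and 4 BMAL1 peaks. The CLOCK peaks, chr1:149803952-149804484 and chr1:149832585-149833117, had nearly the same score, 32 and 32.5. They ranked 73 and 67 of 269 in the CLOCK list and lay 28633 bp apart between midpoints. Between them stood a pair of BMAL1 peaks with the same score, 13, at chr1:149812816-149813212 and chr1:149825057-149825453, 12241 bp apart. These carried the consecutive numbers 1711 and 1712. The centre of the CLOCK pair and the centre of the BMAL1 pair were 600 bp apart. The other BMAL1 peaks of the window lay to one side of this point.

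The only region of the windows where both factors were listed was at the second CLOCK peak. There the BMAL1 peak chr1:149832699-149833095 lay wholly inside the CLOCK peak, with 397 bases in common and midpoints 46 bp apart. Its score of 11 ranked 7562 of 9584, with 21.1% of the BMAL1 list at or below it, whereas 75.5% of the CLOCK list was at or below the CLOCK peak's score. The authors' deposited table of common regions held 1 of its 140 regions in the windows, this one, with the CLOCK score of 32.5. The first CLOCK peak of HIST2, of nearly equal score, had no BMAL1 peak nearer than 8796 bp. Over all 3 windows 1 of 11 CLOCK peaks was shared (9.09%, exact interval 0.23 to 41.3%), beside 52.0% of all CLOCK peaks. Of the BMAL1 peaks 1 of 9 was shared (11.1%, 0.281 to 48.2%), beside 1.46% of all BMAL1 peaks. With a gap of up to 10000 bp allowed, 2 of the 11 CLOCK peaks had a BMAL1 partner, and 61.7% of the whole CLOCK list did.

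**Figure D4:**
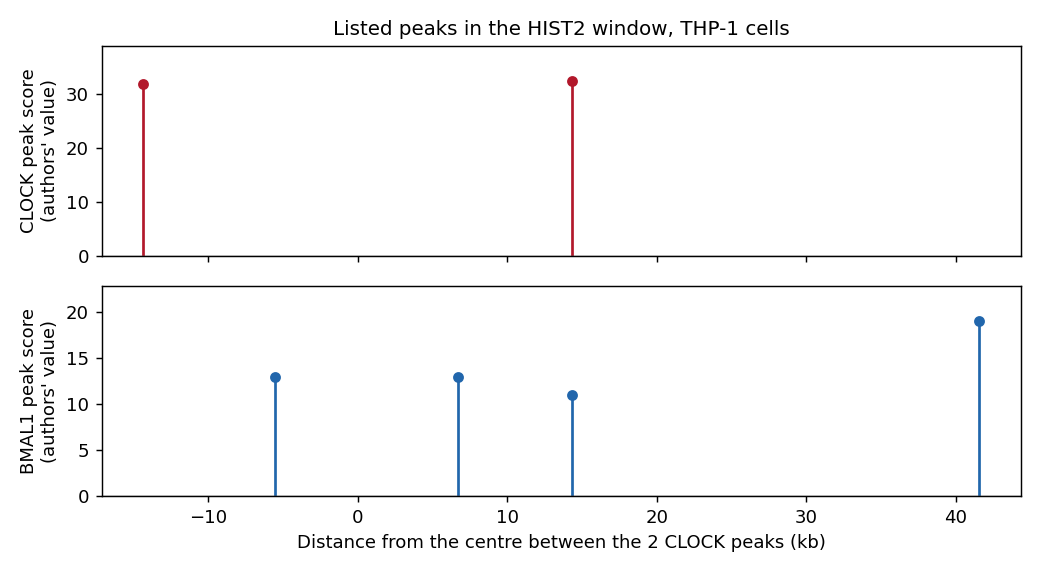
Score (authors' value, vertical axis, own scale for each factor) of the 2 CLOCK peaks (upper panel) and 4 BMAL1 peaks (lower panel) of the HIST2 window against distance from the centre between the 2 CLOCK peaks (kb). A BMAL1 peak scoring 11 stands at the position of the right-hand CLOCK peak, and 2 BMAL1 peaks scoring 13 stand between the CLOCK peaks.

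HIST2 contains near-identical gene copies. Beside the 3 named genes HIST2H2BE, HIST2H2AC and HIST2H2AB, RefSeq lists 8 protein-coding histone genes in the order HIST2H2BF, HIST2H3D, HIST2H4A, HIST2H3C, HIST2H2AA3, HIST2H4B, HIST2H2AA4 and HIST2H3A. The promoter windows of HIST2H4A and HIST2H4B were the same at 300 of 300 bases, so the sequence printed for HIST2H4A is that of HIST2H4B too. HIST2H3C and HIST2H3A shared an unbroken run of 296 bases and HIST2H2AA3 and HIST2H2AA4 one of 299. Reads from such copies cannot be told apart, and how the authors placed them is not given in the sources used here. Whether the paired scores of 32 and 32.5 and of 13 and 13 come from reads shared between copies was not tested. None of the 8 windows held CACGTG, and the CGGAC of the H4 pair lay 45 bases before the start.

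The remaining BMAL1 peak of HIST2, chr1:149859861-149860257, scored 19, above the BMAL1 median, and lay 27208 bp from the nearest CLOCK midpoint. HIST3, a window of 60 kb with the genes HIST3H3, HIST3H2A and HIST3H2BB, held only a BMAL1 peak. That peak, chr1:228646989-228647385, scored 20.5, the highest BMAL1 score of the windows, with rank 2233 of 9584. Its nearest CLOCK midpoint was 96598 bp away, outside the window. On chromosome 1, up to the highest number listed, the lists lack 98.7% of CLOCK numbers and 57.8% of BMAL1 numbers. The lack of a CLOCK peak in HIST3 thus does not show that the window was unbound.

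Within their own lists, CLOCK peaks of the windows scored between 18.5 and 37 (median 25.5). Of these, 7 of 11 were at or above the CLOCK median, as were 52.4% of all CLOCK peaks. BMAL1 peaks scored between 10 and 20.5 (median 13), and 3 of 9 were at or above the BMAL1 median, as were 51.8% of all BMAL1 peaks. No peak of the windows was near the top of either list, whose highest scores were 169 for CLOCK and 320.5 for BMAL1. The strongest CLOCK peak of the windows had 80.7% of its list at or below its score, and the strongest BMAL1 peak 76.7%.

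**Figure D5:**
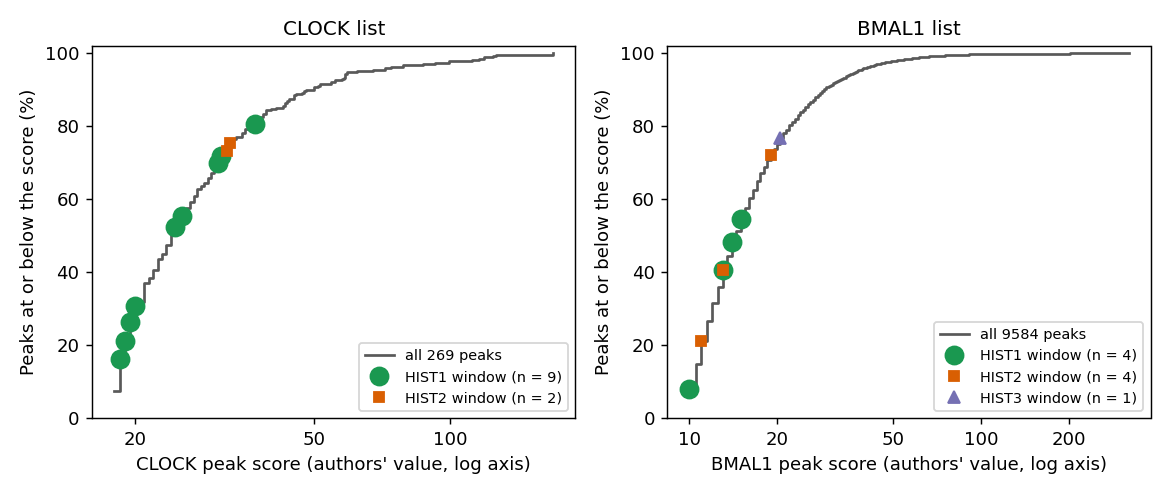
Share of peaks (%, vertical axis) at or below each score (authors' value, log axis) in the CLOCK list (left) and the BMAL1 list (right), with the peaks of the HIST1 (circles), HIST2 (squares) and HIST3 (triangle) windows marked on the line. CLOCK marks run from 18.5 to 37 and BMAL1 marks from 10 to 20.5.

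Outside the windows, the nearest listed CLOCK peak lay farther off than the nearest BMAL1 peak on each side where both were listed. The CLOCK list is far shorter, 269 peaks against 9584, so distances are not comparable between the factors. No CLOCK peak was listed on chromosome 6 before HIST1, and the next after it was chr6:33385767-33386299, scoring 24.5, 5486033 bp beyond the edge. The BMAL1 peak before HIST1, chr6:23619944-23620340, scored 11 and lay 2379858 bp from the edge, and the one after, chr6:28304069-28304465, scored 16.5 and lay 404267 bp from it. Before HIST2 the nearest BMAL1 peak, chr1:149576260-149576656, scored 26.5 and lay 173542 bp from the edge. The nearest CLOCK peak before it, chr1:148881832-148882364, scored 23.5, overlapped a BMAL1 peak and lay 867902 bp away. HIST2 was followed at 1285 bp by a BMAL1 peak scoring 36.5, chr1:149901087-149901483, stronger than any BMAL1 peak inside, and at 1807624 bp by the CLOCK peak chr1:151707358-151707890, scoring 19.5. The BMAL1 peaks on either side of HIST2 thus scored higher than the 4 within it. Before HIST3 the BMAL1 peak chr1:228273387-228273783 scored 20 and lay 326415 bp from the edge. The CLOCK peak before it, chr1:223808978-223809510, scored 18.5, overlapped a BMAL1 peak and lay 4790756 bp away. After HIST3 the BMAL1 peak chr1:228688799-228689195, scoring 11.5, stood 28997 bp from the edge. The next CLOCK peak there, chr1:228743519-228744051, scored 42.5, overlapped a BMAL1 peak and lay 83785 bp from the edge.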

How the data were processed

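ChIP-seq peak lists of 2 THP-1 libraries, BMAL1 and CLOCK, were used. Per the file headers and columns, the authors listed peaks with HOMER. Tools credited to the submitters' processing notes, without roles, are HOMER 4.7.2, Bowtie 0.12.7, Picard and SAMtools 1.2, with build hg19. The deposited score of each peak has no stated unit or normalization, and the sources used here do not give its control or threshold. Sequencing depth is unknown.

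The members and lists were chosen with earlier results of these data known. A peak belonged to a window by its midpoint, and peaks were shared when they overlapped by at least 1 bp. All peaks of the windows and the nearest ones outside on each side are named. Shares have exact Clopper-Pearson 95% intervals, for counting error only. These treat peaks as independent draws, which the chosen peaks of the windows are not, so no comparison of shares rests on them. With 1 library per factor no test was made. No annotation of hg19 was used here, so the planned assignment to genes and the counts of peaks at gene lists were not made. Gene names, order and promoter sequences are RefSeq's, of build GRCh38.p14. Each of 7 motifs was searched on both strands. Overlap and motif searches were tested on simulated data. Scripts ran in Python 3.11.15 with pandas 2.3.3, numpy 2.4.6, matplotlib 3.10.9 and scipy 1.17.1.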

Additional observations from a re-analysis of the deposited data

How the results depend on the processing

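Of 15 alternatives to 7 results, 7 left the value within its limit and 8 moved it. The limit was 1.5 times for a count, and any change counted as a move for a median. Against BMAL1 peaks at or above the BMAL1 median, 0 of the 11 CLOCK peaks of the windows were shared in place of 1, and with a gap of up to 10000 bp 2 were. Keeping peaks at or above the median score of their list left 3 of 9 BMAL1 and 7 of 11 CLOCK peaks, since the limit removes peaks by construction. In the HIST1 window alone the median score was 13.5 for BMAL1 and 24.5 for CLOCK, and with windows widened by 100 kb it was 14 and 28, against 13 and 25.5. Widening gave 13 BMAL1 and 12 CLOCK peaks. Limiting promoter windows to the 250 bases before the start, an alternative chosen after the data were seen, left the E-box in 0 windows and the H4 core in 9. Alternatives that need an hg19 annotation (the span of the member genes and the rules for a peak on a gene) were not run. No paired analysis was possible because each factor has 1 library here and no result comes from a test. Depth is unknown, so a site missing from a list is not shown to be unbound.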

Other observations

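The E-box was also counted in promoter windows of 3 lists of genes that work with the histone clusters, to set beside the 0 of 57 windows of the histone genes and the 7.26% of all windows. Among genes of histone transcription and 3' end processing, 2 of 23 windows of 20 genes held CACGTG. They were those of HINFP, the factor of the H4 gene site, and of E2F3, an S-phase transcription factor. Of the replication-independent histone genes, 0 of 15 windows held it. Of the histone chaperones of replication, 3 of 11 windows of 9 genes did. They were those of CHAF1A, the large subunit of chromatin assembly factor 1, RBBP4, another subunit of that factor, and MCM2, a subunit of the replicative helicase that also binds histones. These windows were not compared with peaks.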
